A study of Homo sapiens with 6 samples.

Results

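The 10 genes described here encode the dual-specificity MAP kinase phosphatases DUSP1, DUSP2, DUSP4, DUSP5, DUSP6, DUSP7, DUSP8, DUSP9, DUSP10 and DUSP16. They were chosen by name, as the rows of the deposited table whose gene name is one of these symbols, and all 10 were found among its 58825 genes. They were measured in HK-2 cells, a human kidney tubular cell line immortalized with viral oncogenes, so that all libraries come from 1 line. Oxidized low-density lipoprotein (OX-LDL), the stimulus, is a lipoprotein particle whose lipids and protein have been modified by oxidation. The 6 libraries of poly(A) RNA were 3 from untreated cultures (Control) and 3 from cultures treated over 48 h with OX-LDL at 25 μg/ml. The methods describe serum starvation before OX-LDL, and the labels give no time for the untreated cultures. No label ties the 3 libraries of a group to separate experiments, so the spread between them may be partly technical.

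MAP kinases pass signals from the cell surface to the nucleus through a chain of kinases, and they are active only when a threonine and a tyrosine in their activation loop both carry phosphate. Dual-specificity phosphatases remove both phosphates and so end the signal. Many of these phosphatases are themselves transcribed in response to the kinases that they switch off, which makes their mRNA part of a negative feedback loop. DUSP5, which is nuclear, and the cytoplasmic DUSP6, DUSP7 and DUSP9 act mainly on ERK, although DUSP9 can also act on p38. DUSP8, DUSP10 and DUSP16 act mainly on the stress-activated kinases p38 and JNK. DUSP1, DUSP2 and DUSP4 are nuclear enzymes with a broader range.

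The libraries held between 62561347 and 76797607 estimated counts. Levels are given as FPKM, which is scaled for transcript length and library size, and changes as log2 fold changes of OX-LDL over Control from edgeR's quasi-likelihood test on the counts, with their standard errors (SE) and with p-values adjusted over the 19510 genes whose mean reached 0.1 FPKM. All 10 phosphatases passed that minimum, and none had fewer than 50 estimated counts in any library. A read pair gave about 4 of these counts, so the rarest members rest on few read pairs. Of the tubular markers, KRT8, KRT18 and EPCAM were at 30.85 FPKM or more in each library, PAX8 had a lower level after OX-LDL (log2 fold change -1.23) and KRT19 a higher one (1.94), whereas LRP2, the endocytic receptor megalin of the proximal tubule, had no count in any library and CUBN, AQP1 and ANPEP had means under 0.1 FPKM. The 13 tubular markers summed to 210.1 to 235.6 FPKM in the untreated libraries and 264.5 to 302.7 FPKM in the treated ones, and the part of this shift in the results that follow was not tested. Of 5 endothelial markers, none reached a mean of 0.1 FPKM. Of 7 fibroblast markers, 2 did. The sum over the 7 ranged from 10.1 to 12.01 FPKM (Control) and from 8.77 to 14.1 FPKM (OX-LDL), nearly all of it LUM. The 6 leukocyte markers summed to 3.15 to 7.80 FPKM without and 9.20 to 14.2 FPKM with OX-LDL, nearly all of it CD68, which other cells also carry in lysosomes. PTPRC, the pan-leukocyte marker, was at or below 0.0105 FPKM in every library. With bulk RNA, fewer cells that express a gene and less RNA per cell cannot be told apart.

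After OX-LDL, DUSP5, DUSP6, DUSP10 and DUSP16 fell and DUSP9 rose, while DUSP1, DUSP2, DUSP4, DUSP7 and DUSP8 did not pass the test. With calls made by edgeR where the adjusted p-value was under 0.05, 5 of the 10 were called, 4 lower and 1 higher, and over all genes tested the share called was 15.3% (7.42% lower and 7.91% higher). Where the mean level reached 1 FPKM, the share was 21.4%. Without 1 library, between 3 and 5 of the 10 were called, and 3 was the number when Control replicate 2 was left out, or either of replicates 1 and 3 of OX-LDL. The 3 OX-LDL libraries lay wholly below the 3 Control libraries for 5 of the phosphatases and wholly above them for 1, and the corresponding shares over all genes tested were 20.5% and 16.8%. At a p-value under 0.05, taken here as unadjusted, and a fold change over 2 or under 0.5, DUSP5 and DUSP8 were lower and DUSP9 was higher, and 6.36% of all genes tested passed these limits, 3.16% lower and 3.19% higher. With the adjusted p-value in its place, DUSP8 did not pass. The median log2 fold change of the 10 was -0.52, beside a median of -0.0043 over all genes tested.

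**Figure D1:**
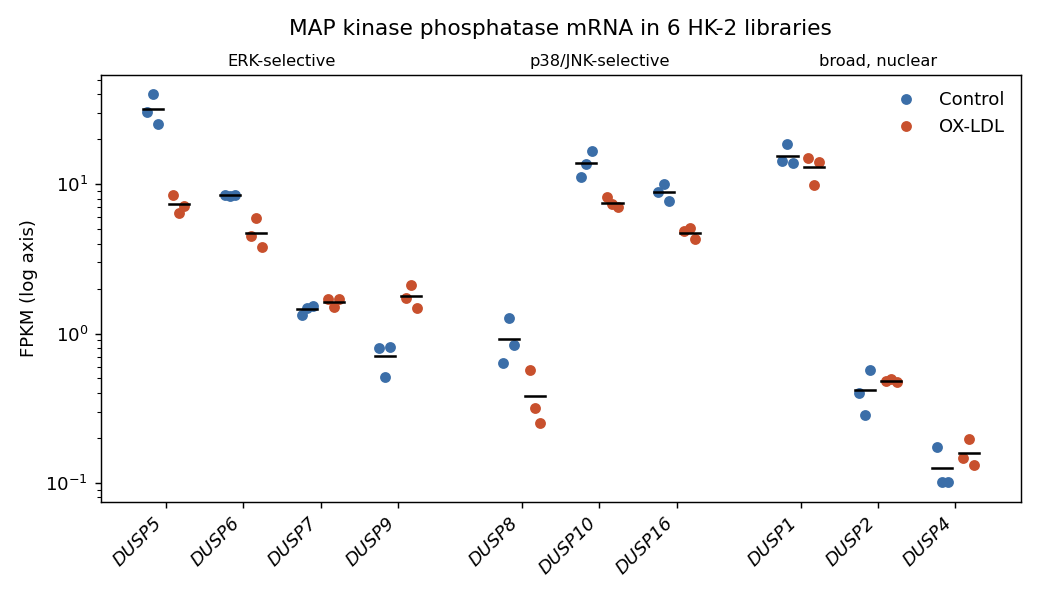
FPKM on a log axis of each phosphatase in each library, with 3 Control and 3 OX-LDL points per gene and a black line at each group's mean. DUSP5 lies at 25.3 to 40.1 FPKM untreated and at 6.46 to 8.52 FPKM treated, and DUSP9 is the gene whose OX-LDL points all lie above its Control points.

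Of the ERK-selective enzymes, DUSP5 (ENSG00000138166; chromosome 10, 110497907 to 110511533 of GRCh38) showed the largest change of the 10. It is an inducible phosphatase that holds ERK in the nucleus as well as dephosphorylating it. Its level was 30.7, 40.1 and 25.3 FPKM in Control replicates 1 to 3 and 8.52, 6.46 and 7.17 FPKM in OX-LDL replicates 1 to 3. The highest OX-LDL library was thus well under the lowest Control library. The means were 32.1 ± 7.51 and 7.39 ± 1.05 FPKM (SD, n = 3 per group), a 4.24-fold lower level or -2.08 on the log2 scale (SE 0.19, edgeR adjusted p = 0.00189). The call held in all 15 alternative fits, with log2 fold changes between -2.23 and -1.90. The processed pseudogene DUSP5P1, named after its values were seen because reads could be split between the gene and its copy, had 62, 104 and 139 estimated counts in Control and 128, 128 and 225 in OX-LDL, against at least 1488 for DUSP5 in every library. Its log2 fold change was 0.69 (SE 0.39, edgeR adjusted p = 0.287).

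DUSP6 (ENSG00000139318; chromosome 12, 89347235 to 89352501) is a cytoplasmic phosphatase induced by ERK through ETS factors. It stood at 8.54, 8.37 and 8.49 FPKM in the Control libraries and at 4.47, 5.91 and 3.81 FPKM in the OX-LDL libraries. The Control values were nearly equal and the OX-LDL values were spread, with replicate 2 nearest to Control. The log2 fold change was -0.81 (SE 0.16), a 1.75-fold lower level, and edgeR gave it an adjusted p-value of 0.0216. This call was the least stable of the 5, because the adjusted p-value was 0.0572 to 0.0781 without any of Control replicates 1, 2 and 3 and OX-LDL replicates 1 and 3, and 0.00621 without OX-LDL replicate 2. An antisense gene, AC024909, overlaps DUSP6 on the other strand and is named here after its values were seen. It had 238, 183 and 394 estimated counts in Control and 47, 0 and 105 in OX-LDL (log2 fold change -2.38, SE 1.14, edgeR adjusted p = 0.215). Whether the authors counted by strand is not given in the sources used here, so reads of the overlapping stretch cannot be assigned with certainty to either gene.

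DUSP9 (ENSG00000130829; chromosome X, 153642492 to 153651326), a cytoplasmic relative of DUSP6 best known from placenta and embryonic stem cells, moved the opposite way. Its level was 0.802, 0.515 and 0.807 FPKM in Control and 1.74, 2.10 and 1.48 FPKM in OX-LDL, so that each OX-LDL library was above each Control library. The rise was 2.54-fold, or 1.35 on the log2 scale (SE 0.26, edgeR adjusted p = 0.0176). Without OX-LDL replicate 1 the adjusted p-value was 0.0557, and with any other single library left out it stayed under 0.05. The counts behind it were 128 to 529 per library. Within single libraries, the FPKM of DUSP9 was 0.0616 to 0.0951 of that of DUSP6 in Control and 0.355 to 0.389 of it in OX-LDL, so the gap between these related enzymes narrowed in every treated library.

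DUSP7 (ENSG00000164086; chromosome 3, 52048919 to 52056571), the remaining cytoplasmic ERK phosphatase, was at 1.33, 1.49 and 1.53 FPKM in Control and 1.71, 1.498 and 1.701 FPKM in OX-LDL. The groups overlapped at OX-LDL replicate 2. Its log2 fold change was 0.21 (SE 0.13, edgeR adjusted p = 0.324). In no alternative fit was it called.

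All 3 p38/JNK-selective enzymes had their OX-LDL libraries wholly below their Control libraries, as did 20.5% of all genes tested, and DUSP8 among them was not called. DUSP10 (ENSG00000143507; chromosome 1, 221701424 to 221742089), a phosphatase of nucleus and cytoplasm known as a brake on JNK in immune cells, had 11.2, 13.7 and 16.6 FPKM in Control and 8.18, 7.38 and 7.03 FPKM in OX-LDL. Its fall was 1.80-fold, or -0.85 on the log2 scale (SE 0.15, edgeR adjusted p = 0.0142). Without Control replicate 2 the adjusted p-value was 0.0511 and without OX-LDL replicate 3 it was 0.0607.

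DUSP16 (ENSG00000111266; chromosome 12, 12474210 to 12562383), a large cytoplasmic JNK phosphatase, had 8.83, 10.1 and 7.73 FPKM in Control and 4.85, 5.11 and 4.28 FPKM in OX-LDL. The fall was 1.83-fold, or -0.87 on the log2 scale (SE 0.12, edgeR adjusted p = 0.00707). This was the second call, after DUSP5, that held in all 15 alternative fits. DUSP6, DUSP10 and DUSP16 thus fell by log2 values that differed by less than their standard errors, although they lie in different selectivity classes.

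DUSP8 (ENSG00000184545; chromosome 11, 1554051 to 1572271), a JNK and p38 phosphatase best known from brain and heart, was rarer. It had 0.636, 1.26 and 0.844 FPKM in Control and 0.573, 0.318 and 0.250 FPKM in OX-LDL. The lowest Control library and the highest OX-LDL library were close to each other, and Control replicate 2 stood highest. The log2 fold change was -1.23 (SE 0.38), with an unadjusted p-value of 0.0147 and an adjusted p-value of 0.0753 from edgeR. DESeq2 gave an adjusted p-value of 0.00816, and the adjusted p-values of the other alternatives were between 0.0540 and 0.219. The processed pseudogene DUSP8P5 had 96, 77 and 29 estimated counts in Control and 40, 39 and 37 in OX-LDL, so part of the reads of DUSP8, which had 113 to 560 counts, may lie in either gene.

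Among the broad nuclear enzymes, DUSP1 (ENSG00000120129; chromosome 5, 172768096 to 172771195) was the most abundant. It is an immediate early gene that is transcribed within minutes of stress or growth factors. Its level was 14.3, 18.6 and 13.8 FPKM in Control and 15.0, 9.95 and 14.2 FPKM in OX-LDL. The groups overlapped, with OX-LDL replicate 2 lowest and Control replicate 2 highest. The log2 fold change was -0.22 (SE 0.18, edgeR adjusted p = 0.473).

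DUSP2 (ENSG00000158050; chromosome 2, 96143169 to 96145440), known from activated lymphocytes, had 0.401, 0.284 and 0.569 FPKM in Control and 0.480, 0.493 and 0.472 FPKM in OX-LDL (log2 fold change 0.22, SE 0.33, edgeR adjusted p = 0.708). DUSP4 (ENSG00000120875; chromosome 8, 29333064 to 29350684), an ERK-induced nuclear phosphatase, was the rarest of the 10 at 0.175, 0.101 and 0.102 FPKM in Control and 0.147, 0.196 and 0.131 FPKM in OX-LDL (log2 fold change 0.35, SE 0.34, edgeR adjusted p = 0.543). Both genes overlapped between the groups. Their counts were 50 to 130 per library.

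**Figure D2:**
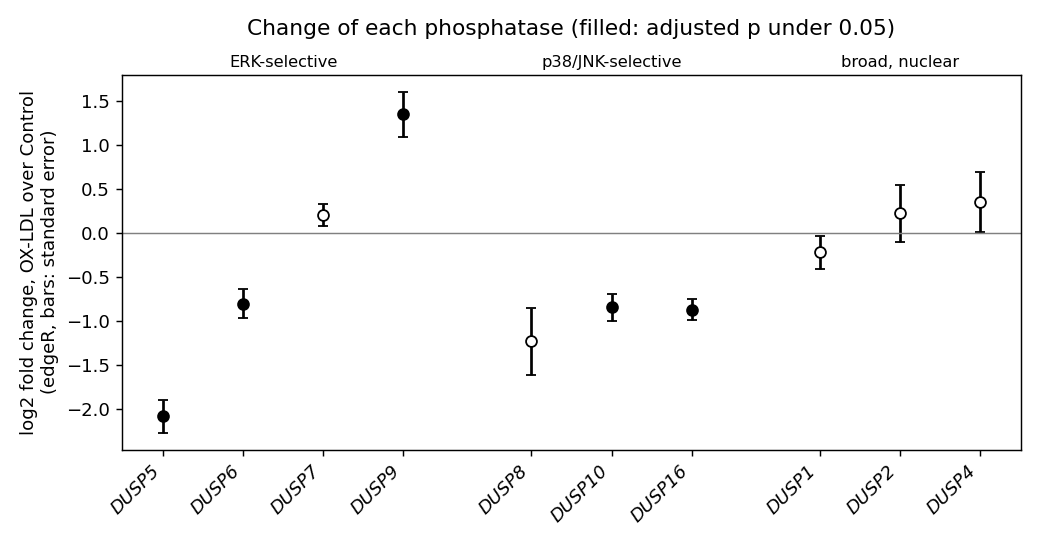
Log2 fold change (OX-LDL over Control) of each phosphatase from edgeR, with bars of 1 standard error and filled points at an adjusted p-value under 0.05. The filled points are DUSP5 (-2.08), DUSP6 (-0.81), DUSP10 (-0.85) and DUSP16 (-0.87) below zero and DUSP9 (1.35) above it.

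The order of the levels changed at the top. In Control, DUSP5 led at a mean of 32.1 FPKM, followed by DUSP1 (15.6), DUSP10 (13.9), DUSP16 (8.88), DUSP6 (8.46), DUSP7 (1.45), DUSP8 (0.915), DUSP9 (0.708), DUSP2 (0.418) and DUSP4 (0.126). The libraries of DUSP1 and DUSP10, of DUSP16 and DUSP6, of DUSP8 and DUSP9 and of DUSP9 and DUSP2 overlapped, so these neighbours were not separated by their spread. In OX-LDL, DUSP1 led at 13.05 FPKM, with each of its libraries above all of those of DUSP10 (7.53). DUSP10 and DUSP5 (7.39) overlapped, as did DUSP16 (4.75) and DUSP6 (4.73), DUSP9 (1.77) and DUSP7 (1.64), and DUSP2 (0.482) and DUSP8 (0.380), and DUSP4 (0.158) was last. Summed over the 10 genes, the level was 75.8 to 94.6 FPKM without OX-LDL and 39.4 to 45.7 FPKM with it. The share of DUSP5 in that sum was 33.4% to 42.4% in Control and 16.4% to 18.7% in OX-LDL, and that of DUSP1 was 18.2% to 19.7% and 25.2% to 35.1%. The ratio of DUSP5 to DUSP1 was 2.15, 2.16 and 1.83 in the Control libraries and 0.568, 0.650 and 0.505 in the OX-LDL libraries.

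The contrast of ERK-selective with p38/JNK-selective enzymes depended on DUSP5. Summed over DUSP5, DUSP6, DUSP7 and DUSP9, the ERK-selective level was 41.4, 50.5 and 36.1 FPKM in Control and 16.4, 16.0 and 14.2 FPKM in OX-LDL. Summed over DUSP8, DUSP10 and DUSP16, the p38/JNK-selective level was 20.7, 25.1 and 25.2 FPKM in Control and 13.6, 12.8 and 11.6 FPKM in OX-LDL. For both sums, the highest treated value was below the lowest untreated value. By contrast, the broad enzymes summed to 14.5 to 19.0 FPKM untreated and 10.6 to 15.6 FPKM treated, and these ranges overlapped.

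The ratio of the ERK-selective to the p38/JNK-selective sum was 2.00, 2.01 and 1.43 in Control and 1.21, 1.25 and 1.22 in OX-LDL, with means of 1.82 ± 0.332 and 1.23 ± 0.0191 (SD, n = 3 per group). On the log2 scale the difference of OX-LDL minus Control was -0.55. Control replicate 3 was close to the OX-LDL libraries, and without it the difference was -0.71. When DUSP5 was left out of the sum, the ratio was 0.516, 0.413 and 0.429 in Control and 0.582, 0.743 and 0.604 in OX-LDL, which is the opposite direction. The mean of log2(FPKM + 0.1) over the members of each class, in which a rare gene weighs as much as an abundant one, also gave the opposite direction, with a difference of 0.56. With 3 libraries against 3, no exact two-sided permutation test can give a p-value under 0.1, and none was run on these sums. By single genes, 2 of 4 ERK-selective enzymes fell, 1 rose and 1 was not called (median log2 fold change -0.30). Of 3 p38/JNK-selective enzymes, 2 fell and 1 was not called (median -0.87), and none of 3 broad enzymes was called (median 0.22). Over all genes tested, 7.42% were called lower and 7.91% higher. In the broad class, DUSP2 and DUSP4 had at most 130 counts in any library, so a change in them could easily be missed. Between DUSP6 and DUSP10, which fell in different classes, the ratio was 0.510 to 0.762 in Control and 0.541 to 0.802 in OX-LDL, so the groups overlapped.

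**Figure D3:**
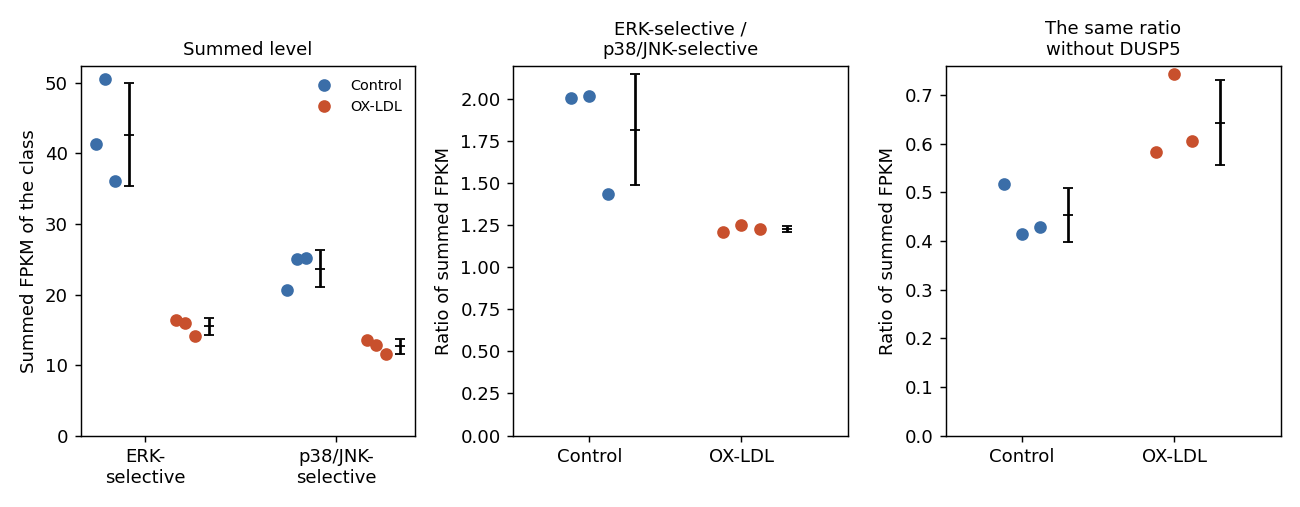
Left, summed FPKM of the ERK-selective (DUSP5, DUSP6, DUSP7, DUSP9) and p38/JNK-selective (DUSP8, DUSP10, DUSP16) phosphatases in each library. Middle and right, the ratio of these sums with and without DUSP5. Points are libraries and black bars are mean ± SD of 3. The ratio is lower in OX-LDL (1.21 to 1.25) than in Control (1.43 to 2.01) with DUSP5, and higher (0.582 to 0.743 against 0.413 to 0.516) without it.

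The promoters of the members were compared as a description, and no link between a motif and a change was tested. RefSeq start sites on GRCh38.p14 were used for 8 of the 10 genes, and the promoters of DUSP4 and DUSP5 were not searched. The 250 bases before each start used were searched on both strands. The cAMP response element TGACGTCA, a binding site of CREB and ATF factors, is held by 1.65% of all promoter windows of this length. Among the members it occurred in DUSP1, 118 to 125 bases before the start, and in DUSP8, at 67 to 74 and at 111 to 118 bases. The shorter element TGACG, which every full element also holds, is found in 21.2% of all windows and occurred in these same genes and in no other member searched. DUSP1 also held a TATA box, TATAAA, at 25 to 30 bases (10.7% of all windows). The windows of DUSP6, DUSP10, DUSP16, DUSP7, DUSP2 and DUSP9 held none of these, and no member's window held the AP-1 site TGANTCA (6.57% of all windows), the ETS site CCGGAA (14.5%), the ATF4 site TGATGCAA (0.772%) or the serum response CArG box (1.16%). The GC box GGGCGG (42.6% of all windows) occurred in every member searched but DUSP6. The windows of DUSP1, DUSP2, DUSP7, DUSP8, DUSP9 and DUSP16 were 74.0% to 78.4% G and C, beside a median of 58.0% over all windows, so that share is not matched for base content. A second start site of DUSP10 and of DUSP9 likewise held GC boxes only, and the DUSP16 start lies 480 bases before the 5′ end that the deposited table gives. Of the members with the full element, DUSP8 had a log2 fold change of -1.23 and DUSP1 one of -0.22, and neither passed the test. Among those with neither TGACG nor TATAAA, DUSP6, DUSP10 and DUSP16 fell, DUSP9 rose, and DUSP2 and DUSP7 did not pass. The absence of a motif says only that these letters are not in these windows. The 4 windows below carry the comparison, as both members with the element and the members of the ERK-selective and p38/JNK-selective classes that fell and whose start is the deposited 5′ end. They run 5′ to 3′ on the minus strand, with capitals on TGACG, TGACGTCA and TATAAA in either orientation. The positions are chr5:172771196-172771445 for DUSP1, chr11:1572272-1572521 for DUSP8, chr12:89352502-89352751 for DUSP6 and chr1:221742090-221742339 for DUSP10.
DUSP1: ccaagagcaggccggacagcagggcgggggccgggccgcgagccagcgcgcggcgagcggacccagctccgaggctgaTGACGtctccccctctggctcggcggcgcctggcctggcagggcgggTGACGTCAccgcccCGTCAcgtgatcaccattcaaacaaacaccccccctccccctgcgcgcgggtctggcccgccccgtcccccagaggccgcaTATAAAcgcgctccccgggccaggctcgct
DUSP8: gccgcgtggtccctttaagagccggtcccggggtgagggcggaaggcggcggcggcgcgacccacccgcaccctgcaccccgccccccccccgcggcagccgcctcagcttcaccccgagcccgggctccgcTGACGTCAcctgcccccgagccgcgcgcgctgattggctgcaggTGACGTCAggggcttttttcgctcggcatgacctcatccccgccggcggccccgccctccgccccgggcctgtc
DUSP6: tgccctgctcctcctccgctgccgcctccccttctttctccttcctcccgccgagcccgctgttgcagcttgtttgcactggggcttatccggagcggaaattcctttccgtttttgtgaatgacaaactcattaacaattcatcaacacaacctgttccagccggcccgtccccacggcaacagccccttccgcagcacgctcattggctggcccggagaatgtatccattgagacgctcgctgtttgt
DUSP10: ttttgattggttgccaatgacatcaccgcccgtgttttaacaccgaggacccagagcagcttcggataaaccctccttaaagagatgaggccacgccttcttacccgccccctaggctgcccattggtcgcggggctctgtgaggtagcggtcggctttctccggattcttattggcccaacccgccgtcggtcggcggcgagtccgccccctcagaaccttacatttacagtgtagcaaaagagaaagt

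Of the 2 members with the smallest p-values, the genes whose log2 CPM (counts scaled to library size) followed them most closely over the 6 libraries were sought among the 12259 genes that averaged 1 FPKM or more. For DUSP5 they were SMG9 (Pearson r = 0.998), ATG101 (0.997) and SPRED2 (0.996), a negative regulator of the ERK pathway. For DUSP16 they were MAP3K10 (0.998), a kinase upstream of JNK, ZNF316 (0.998) and HSBP1L1 (0.997). These are descriptions over 6 libraries of 2 groups, in which genes that differ strongly between the groups tend to be correlated.

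The kinases on which the phosphatases act, and those upstream and downstream of them, were taken as 3 lists. Of 10 MAP kinases, 9 could be tested. MAPK12 (p38γ; log2 fold change 0.31), MAPK7 (ERK5; 0.48) and MAPK13 (p38δ; -0.21) did not pass. Of 19 upstream kinases, all tested, 2 were called and both rose, which is 10.5% beside 15.3% of all genes tested. These were MAP2K1, the kinase MEK1 that activates ERK (log2 fold change 0.50, SE 0.08), and MAP3K5, the stress-responsive kinase ASK1 upstream of p38 and JNK (0.60, SE 0.12). MAP2K1 was called in all 15 alternative fits, and MAP3K5 lost its call when replicate 1 or 2 of Control, or replicate 1 or 3 of OX-LDL, was left out. MAP2K4 (0.43) and MAP3K4 (0.29) did not pass. The medians of both lists, -0.035 and 0.052, were near that of all genes tested. Of 11 kinases that MAP kinases activate, 10 could be tested and 3 fell, beside 7.42% called lower of all genes tested. MKNK2, which phosphorylates the translation factor eIF4E, fell from 20.9 ± 1.12 to 11.9 ± 0.773 FPKM, or -0.78 on the log2 scale (SE 0.08), MAPKAPK3, a target of p38, fell from 30.4 ± 1.83 to 18.6 ± 0.530 FPKM (-0.67, SE 0.07), and RPS6KA6, a kinase of the RSK family, fell from 2.82 ± 0.311 to 1.43 ± 0.174 FPKM (-0.95, SE 0.14). RPS6KA4 (0.49) did not pass.

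The next list held genes that ERK signalling is known to induce or that feed back on it. Of these 17 genes, all tested, 7 were called lower and 1 higher, which is 47.1% beside 15.3% of all genes, with a median log2 fold change of -0.45. ETV5, an ETS transcription factor downstream of ERK, fell from 20.9 ± 0.699 to 8.17 ± 1.16 FPKM, or -1.32 on the log2 scale (SE 0.11). SPRED2, SPRY2 and SPRY4, inhibitors of the pathway, had log2 fold changes of -0.88, -0.74 and -1.09. The others called lower were EPHA2 (-0.83), ETV4 (-0.64) and SPRED1 (-0.44), and FOSL1, an AP-1 subunit, rose (0.81). For these 8 genes edgeR's adjusted p-values lay between 0.0017 and 0.0347. Leaving out 1 library brought the 8 calls to between 3 (without Control replicate 2 or OX-LDL replicate 3) and 8, and they were 5 without Control replicate 1. ETV5, SPRED2 and SPRY2 were called in all 15 alternative fits. EGR1 (0.49), FOS (0.20) and CCND1 (-0.27), also ERK-responsive, did not pass. Of the genes called lower, SPRY2, SPRY4, SPRED1 and SPRED2 are, like DUSP6, feedback inhibitors of the pathway, and ETV4 and ETV5 are transcription factors downstream of ERK. Of the 15 alternative fits, ETV4 was called in 9, SPRED1 and FOSL1 in 11 each, EPHA2 in 12 and SPRY4 in 13. SPRY1 (-0.57) and SPRED3 (-0.58), of the same families and on the same list, did not pass.

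Of 9 genes linked to stress kinase signalling, 6 were called, 4 lower and 2 higher, with a median log2 fold change of -0.30. The share called was 66.7%, beside 15.3% of all genes tested (7.42% lower and 7.91% higher). CXCL8, a chemokine, fell from 51.2 ± 12.7 to 11.7 ± 1.20 FPKM, or -2.09 on the log2 scale (SE 0.18), JUN, the transcription factor that JNK phosphorylates, from 35.3 ± 5.57 to 16.9 ± 1.20 FPKM (-1.03, SE 0.12), GADD45A, an activator of MAP3K4, from 33.9 ± 5.05 to 12.3 ± 2.83 FPKM (-1.43, SE 0.18) and ATF3, a stress-induced repressor, from 4.10 ± 0.985 to 0.940 ± 0.360 FPKM (-2.09, SE 0.31). GADD45B (1.04) and IL6 (0.73) rose, and GADD45B lost its call when any library other than Control replicate 3 was left out. ATF3 and GADD45A are also induced by other stress pathways, and CXCL8 and IL6 also by NF-κB. Of 21 other phosphatases of the MAP kinases or of the wider dual-specificity family, 17 could be tested and 2 were called, both lower. They were DUSP12 (-0.60, SE 0.13) and PPM1D, a phosphatase of p38 (-0.50, SE 0.12), and both lost their call when replicate 2 or 3 of Control, or replicate 1 or 3 of OX-LDL, was left out. DUSP3 stood at 10.04 ± 6.62 FPKM untreated and 4.04 ± 0.479 FPKM treated (log2 fold change -1.28, SE 0.43) and did not pass, nor did PPM1A (-0.39). The share called in this list was 11.8%, beside 15.3% of all genes.

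**Figure D4:**
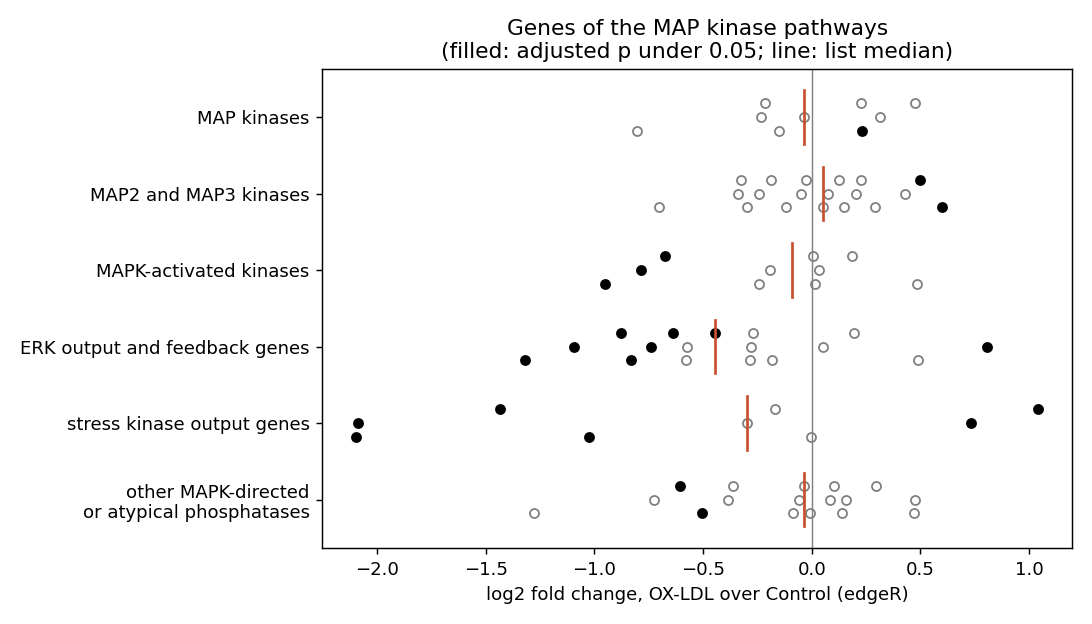
Log2 fold change (OX-LDL over Control, edgeR) of each tested gene in 6 lists of MAP kinase pathway genes. Filled points have an adjusted p-value under 0.05 and the coloured lines are list medians, which lie at -0.45 for ERK output and feedback genes, -0.30 for stress kinase output genes and between -0.092 and 0.052 for the other 4 lists.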

How the data were processed

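Poly(A) RNA of HK-2 cells was sequenced as read pairs. The authors deposited 1 table of 58825 genes with estimated counts, which they did not scale for library size, and FPKM, which they scaled for transcript length and library size, with a count of 0 listed at 0.0001. The submitters' processing notes name cutadapt 1.9, HISAT2 2.0.4, StringTie 1.3.4d and GRCh38, and the counting settings are not given in the sources used here. For each of the 10 members, CPM divided by FPKM varied by at most 1.42% over the 6 libraries, so the FPKM carry no information on isoforms. Genes with exactly 4 counts were 3.26 times as frequent as those with the neighbouring counts, so a read pair gave about 4 counts, and total counts correspond to 15640337 to 19199402 read pairs per library. Libraries of the same group differed well beyond counting noise (chi-square per gene between 52.0 and 89.6), so none was taken as a repeat deposit.

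Whole-number estimated counts were fitted with edgeR 4.0.16 (R 4.3.3) after TMM normalization (factors 0.985 to 1.024), with group as the only term, over genes averaging 0.1 FPKM or more, with Benjamini-Hochberg adjustment. The SE of a log2 fold change was taken as its size over the root of edgeR's F. Alternatives were DESeq2 1.42.0, RLE factors, limma 3.58.1 on log2(FPKM + 0.1), log2(FPKM + 1) and log2(FPKM + 0.01), a minimum of 1 FPKM, no minimum, counts divided by 4, the replicate number as a block, and fits without each library in turn. The fits were tested on simulated data in which 200 genes were changed. There edgeR made 119 calls, 5 of them false, and recovered 33.3% of 2-fold and 76.4% of 4-fold changes. DESeq2 made 224 calls, 71 of them false, and edgeR with the replicate block made 136, 20 of them false. The 200 changed genes were among 19510, whereas 2991 genes were called in the real data. The shares recovered and falsely called in the simulation therefore need not hold for the real data. A member that was not called may still have changed.

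The members and the pathway lists were chosen with earlier results of these data known. Named were all members and, of each list, at most 4 genes of smallest p-value that averaged 1 FPKM or more, plus the 3 genes most correlated with each of the 2 members of smallest p-value. The remaining called genes of the ERK and stress lists, EGR1, FOS, CCND1, SPRY1 and SPRED3 were named after their values were seen. So were the cell type markers named, the pseudogenes and the antisense gene. Promoter sequences are from RefSeq. The result of 1 gene of the MAP kinase list is not reported here.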

Additional observations from a re-analysis of the deposited data

How the results depend on the processing

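No member changed direction in any alternative fit, and DUSP5 and DUSP16 were called in all 15. Of the 10 members, 5 were called; the number was 6 with DESeq2, 3 with the replicate block and 3 to 5 without 1 library. The number past the fold limits with an unadjusted p-value under 0.05 was 3; it was 1 with limma on log2(FPKM + 1), and 2 to 3 without 1 library. Over all genes, 2991 were called; the number was 1636 with the replicate block, 1161 to 2943 without 1 library and 4430 with DESeq2. Same-numbered Control and OX-LDL libraries did not deviate together (correlations of -0.041, -0.003 and 0.036), so the numbers were not taken as pairs. With the block, DUSP9 had an adjusted p-value of 0.0631 and DUSP10 one of 0.0504 in edgeR's test. The log2 difference of the class ratio (-0.55) was -0.80 with DUSP1 counted as p38/JNK-selective and DUSP2 and DUSP4 as ERK-selective, -0.36 from CPM, 0.56 from the mean of log2(FPKM + 0.1) and -0.71 to -0.47 without 1 library. The same alternatives were applied to the pathway lists after the data had been seen. DESeq2 called 2 of 9 MAP kinases, 4 of 19 upstream kinases and 4 of 17 other phosphatases. These shares were close to that over all genes, as DESeq2 called 4430 of 19510. No MAP kinase (0) was called with limma at any of the 3 pseudocounts, without a minimum or with the block, and the block left 1 upstream kinase, 5 ERK output genes and 0 other phosphatases. Without 1 library, the calls were 0 to 1 MAP kinases, 1 to 2 upstream kinases, 3 to 8 ERK output genes, 3 MAPK-activated kinases, 5 to 6 stress kinase output genes and 0 to 1 other phosphatases. The cause of these differences was not tested. DUSP2 and DUSP4 had at most 130 counts in any library, and the part of depth in their results was not tested.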
